A study of Mus musculus with 24 samples.

Results

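Perilipins, CIDE proteins and FITM proteins make, coat and enlarge lipid droplets, and the transcripts of this small set of genes were followed in epididymal fat and liver of mice with and without the fatty acid receptor GPR120. The set held 10 genes, Plin1, Plin2, Plin3, Plin4, Plin5, Cidea, Cideb, Cidec, Fitm1 and Fitm2, and 18193 genes in all had a probe set of their own. A gene was represented by the probe set of highest mean log2 signal in a tissue, among probe sets that the platform annotation gives to that gene only. No probe set named Plin1 alone, so 9 of the 10 genes were measured, and Plin1 was not analysed here.

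The data were Affymetrix microarrays of total RNA from 12 mice, each of which gave both tissues, so that 24 arrays covered 8 groups of 3. The groups were wild-type mice (WT) and mice that lack GPR120 (KO), the product of Ffar4, on a normal diet (ND) or a high-fat diet (HFD). All of the mice, controls included, had a mixed genetic background of the 129/Sv and C57BL/6 strains. The labels give neither age, sex nor time on the diet, nor where in the body the receptor is deleted or how the KO allele was made.

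As background, a lipid droplet is a core of triglyceride and sterol ester under a single layer of phospholipid, formed at the endoplasmic reticulum. Perilipins sit on that layer and control the access of lipases: Plin1 is the perilipin of white fat cells, Plin2 is found on droplets of most cells, Plin3 is a ubiquitous protein that moves onto young droplets, Plin4 is an amphipathic coat protein of fat cells, and Plin5 is the perilipin of oxidative tissues that links droplets to mitochondria. CIDE proteins gather where droplets touch and pass lipid from the smaller to the larger one. Cidec (Fsp27) does this in white fat cells, Cidea is known from brown fat and from fatty liver, and Cideb is the liver member, which also takes part in loading very-low-density lipoprotein. FITM proteins are endoplasmic reticulum proteins needed for budding of droplets. Fitm1 is known from muscle, and Fitm2 is widely expressed. Several of these genes are known targets of the nuclear receptor PPARγ.

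Sequences upstream of 5 members that moved, Plin4, Plin5, Plin2, Cidec and Fitm1, are shown first, because PPARγ acts through a DNA element in which AGGTCA is repeated after a spacer of 1 base. The sequences are RefSeq's, on build GRCm38.p6, each 270 bases from 250 before to 20 after an annotated start, printed 5′ to 3′ on the strand of the gene. Such windows were taken for 9 of the 10 genes, 11 windows in all. Cidea, the member with the widest difference, was left out of this search, so no window of it was read. Capitals mark AGGTCA, the E-box CACGTG and CCAAT, each sought on both strands, so that TGACCT and ATTGG are the reverse complements. Plin4 (minus strand, chr17:56109763-56110032), Plin5 (minus strand, chr17:56117529-56117798), Plin2 (minus strand, chr4:86670040-86670309), Cidec from its pair of starts (minus strand, chr6:113435741-113436010 and chr6:113434745-113435014) and Fitm1 (plus strand, chr14:55575424-55575693) read as follows.
Plin4: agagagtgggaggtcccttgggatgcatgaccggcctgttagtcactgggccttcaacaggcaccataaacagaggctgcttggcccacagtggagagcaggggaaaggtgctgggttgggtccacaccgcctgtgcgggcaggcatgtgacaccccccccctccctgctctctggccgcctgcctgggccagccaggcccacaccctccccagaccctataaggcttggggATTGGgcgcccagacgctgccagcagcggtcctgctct
Plin5: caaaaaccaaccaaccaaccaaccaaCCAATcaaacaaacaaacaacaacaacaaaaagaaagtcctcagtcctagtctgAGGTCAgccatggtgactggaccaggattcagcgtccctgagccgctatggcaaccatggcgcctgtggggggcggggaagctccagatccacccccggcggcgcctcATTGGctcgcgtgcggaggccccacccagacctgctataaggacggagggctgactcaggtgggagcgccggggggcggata
Plin2: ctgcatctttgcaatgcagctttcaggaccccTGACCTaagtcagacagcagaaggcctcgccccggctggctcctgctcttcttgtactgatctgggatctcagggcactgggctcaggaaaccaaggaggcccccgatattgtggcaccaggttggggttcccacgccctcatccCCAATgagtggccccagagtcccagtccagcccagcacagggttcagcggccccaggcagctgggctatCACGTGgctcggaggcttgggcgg
Cidec start 1: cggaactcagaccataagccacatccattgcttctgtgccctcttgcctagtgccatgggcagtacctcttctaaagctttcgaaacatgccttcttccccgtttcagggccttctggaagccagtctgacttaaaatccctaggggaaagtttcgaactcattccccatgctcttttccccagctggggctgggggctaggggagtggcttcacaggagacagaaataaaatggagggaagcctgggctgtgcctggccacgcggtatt
Cidec start 2: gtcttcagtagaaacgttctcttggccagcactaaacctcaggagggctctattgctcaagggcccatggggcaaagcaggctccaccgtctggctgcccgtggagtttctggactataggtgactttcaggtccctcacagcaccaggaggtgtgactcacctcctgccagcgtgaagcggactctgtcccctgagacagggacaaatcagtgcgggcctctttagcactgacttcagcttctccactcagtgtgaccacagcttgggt
Fitm1: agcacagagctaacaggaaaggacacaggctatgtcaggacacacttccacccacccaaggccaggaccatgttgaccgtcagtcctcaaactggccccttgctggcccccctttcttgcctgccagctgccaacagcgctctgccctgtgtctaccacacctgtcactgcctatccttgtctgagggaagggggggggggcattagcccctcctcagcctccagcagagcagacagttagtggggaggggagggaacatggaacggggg

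The whole element, written loosely as AGGNCANAGGNCA, occurred in none of the 11 windows, while 0.356% of 32851 windows of the same length over all genes held it. At so low a share, 11 windows are too few to show a lack of the element. A single AGGTCA, which is contained in that element, stood in the window of Plin2 at -218 and in both Plin5 windows, at -170 and at 14 from the start, and 15% of all windows held one. CCAAT stood in the windows of Plin2, Plin3 and Plin4 and in one of the pair of Plin5 windows but in none of Plin1, Cideb, Cidec, Fitm1 or Fitm2, against 35.4% of all windows. CACGTG stood in the Plin2 window alone, at -4, against 6.57% of all windows. These are matches of letters in a short window, not measured binding.

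Before the members are described, 3 properties of the arrays matter. Ffar4 itself was lower in KO fat: on HFD its signal was 97.3, 126 and 171 in WT and 26.5, 30.5 and 23.1 in KO, and on ND 62.0, 58.3 and 73.7 in WT and 34.2, 33.7 and 35.7 in KO. In liver the same probe set went against the labels, with 0.55, 1.19 and 1.63 in WT and 18.3, 13.5 and 16.0 in KO on HFD, and 1.07, 17.3 and 2.27 in WT and 36.8, 23.1 and 21.5 in KO on ND. Its mean in liver was under the filter signal of 13.0, and the sources used here do not say whether its target lies within the deleted part. Liver groups are therefore those the labels name, and each liver direction between WT and KO below is between arrays labelled so. Markers of epididymis epithelium, tissue next to this fat depot, summed to 34976 to 56279 on the WT and 39774 to 49507 on the KO fat arrays on ND, but to 23.9 to 38.5 in WT and 28.8 to 2737 in KO on HFD. The highest of the last was the array of mouse 427. The fat array of WT HFD mouse 547 carried skeletal muscle transcripts, with 7 markers summing to 6401 against 351 to 1043 on the other 11. The next highest sum was that of WT HFD mouse 546, whose array had Myh4, a muscle myosin, at 227, where mouse 547 had 918 and the other 10 had 0.66 to 28.6. The WT ND fat arrays of mice 686 and 690 carried the most sperm transcripts, with sums of 17630 and 13152. Lower sums were found on the rest of the ND arrays, at 955 for WT mouse 687 and 729 to 1086 in KO, and at 991 for KO HFD mouse 427. The other HFD arrays had 13.2 to 292. Where leaving out a single fat array, or mice 427 and 547 or mice 686 and 690 together, changed a call of a member in fat, that value is given too. All signals are per array, in intensity units scaled by the authors to a common mean of about 100, and a signal is not comparable between genes.

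The members split by tissue. In fat, WT mice had more Plin2, Plin4, Plin5, Cidec and Fitm2 and less Plin3 on HFD than on ND. In KO mice Plin2 alone of the 7 genes tested passed the test of the diet effect. A direct test of whether that effect differed between the genotypes passed for Plin4 and Plin5 and narrowly for Plin3. It did not pass for Plin2, Cidea, Cidec or Fitm2. In KO fat on HFD, Plin4, Plin5, Cidea and Fitm2 were lower and Plin3 was higher than in WT. In liver on HFD, Cidea, Cidec, Plin4 and Fitm1 were all higher on arrays labelled KO than WT, with Cidea at least 83.6-fold higher. The fat effect and the liver effect ran in opposite directions for Plin4 and Cidea. Their fat calls on HFD were not firm, as that of Plin4 was lost in 5 of 12 alternative fits and that of Cidea in 8 of 12.

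Calls are at an adjusted p under 0.05 in limma, over all 11613 genes tested in fat or 11125 in liver. In fat on HFD, 5 of 7 tested members passed between KO and WT, where 22.5% of all genes passed; 1 was higher in KO (11.1% of all genes) and 4 were lower (11.4%). On ND none of 7 passed by limma, where 0.25% of all genes did; at an unadjusted p under 0.05, 1617 of the 11613 genes lay on one side or the other. The diet passed for 6 of 7 in WT (55.3% of all genes) and for 1 of 7 in KO (48.7%), and the interaction of genotype and diet for 3 of 7 (11%). In liver, KO and WT differed for 4 of 9 on HFD (6.71%), all 4 higher in KO (3.73% of all genes; 2.98% were lower), and 2 of 9 on ND (4.71%). The diet passed for 4 of 9 in WT (12.5%), 4 of 9 in KO (16.5%), and the interaction for 2 of 9 (0.989%). The share for the diet in WT fat, 6 of 7, is to be read against that background of 55.3%. Of the members tested, the arrays of the 2 groups compared did not overlap for 6 of 7 between KO and WT fat on HFD (38% of all genes), 2 of 7 on ND (23.2%), 6 of 7 for the diet in WT fat (61.2%) and 3 of 7 in KO fat (62.2%). In liver this held for 5 of 9 between KO and WT on HFD (29.3%), 4 of 9 on ND (25.6%), 4 of 9 for the diet in WT (28.9%) and 7 of 9 in KO (38.6%). Cidea entered the liver test through the KO HFD arrays alone, so its presence among the members tested there is set by that group.

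**Figure D1:**
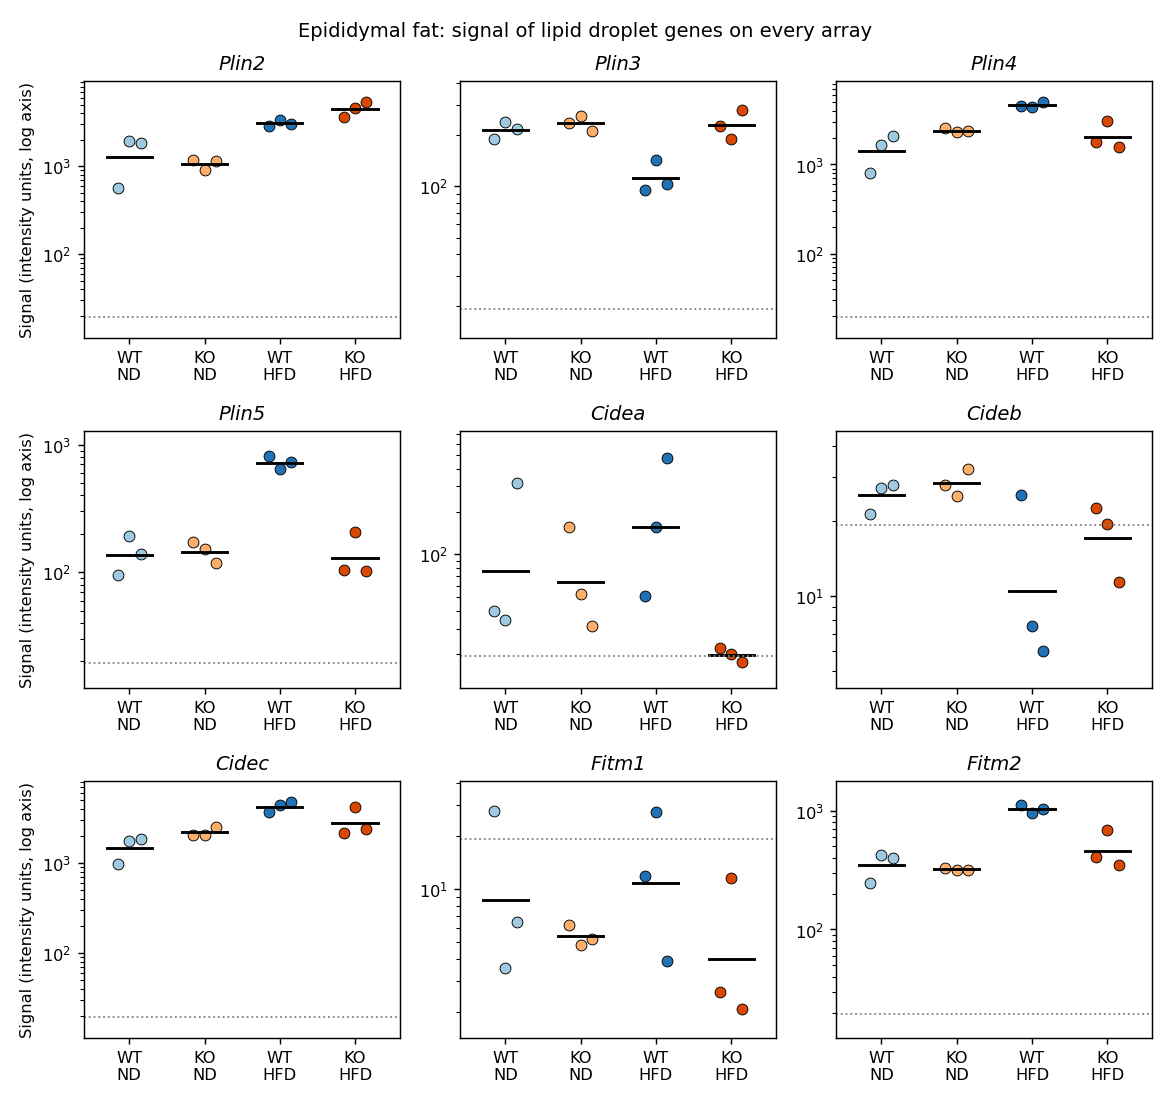
Signal on each of the 12 fat arrays (points, intensity units on a log axis) for the 9 measured members, by genotype and diet; the bar is the mean of log2 signals and the dotted line the filter signal of 19.3. The 3 WT HFD arrays stand apart from the other 9 for Plin5, at 642 to 815 against 95.3 to 207.

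Plin5, the perilipin that ties droplets to mitochondria, showed the widest perilipin difference in fat. Its signals were 95.3, 193 and 139.9 in WT on ND, 172, 151 and 118 in KO on ND, 815, 642 and 729 in WT on HFD and 104, 207 and 103 in KO on HFD. The 3 WT HFD arrays were above all the others, and the other 3 groups overlapped. HFD raised it 5.30-fold in WT (log2 difference 2.40 ± 0.30, SE; adjusted p = 6.55e-05), while in KO the difference was -0.15 ± 0.30 (adjusted p = 0.695). On HFD it was 5.56-fold lower in KO than in WT (-2.48 ± 0.30, adjusted p = 0.000652), and the interaction was -2.56 ± 0.42 (adjusted p = 0.00631). A second Plin5 probe set gave the same direction in these 3 called comparisons, with -2.17 ± 0.36 between KO and WT on HFD (adjusted p = 0.00218).

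Plin4, the amphipathic coat protein of fat cells, was likewise highest in WT on HFD. Its fat signals were 792, 1654 and 2098 in WT on ND, 2552, 2298 and 2351 in KO on ND, 4576, 4431 and 5032 in WT on HFD and 1796, 3076 and 1573 in KO on HFD. WT on HFD was the highest group, with no overlap with any other, and KO on HFD overlapped KO on ND. HFD raised Plin4 3.34-fold in WT (log2 difference 1.74 ± 0.32, adjusted p = 0.000901); in KO the difference was -0.22 ± 0.32 (adjusted p = 0.591). On HFD Plin4 was 2.27-fold lower in KO (-1.18 ± 0.32, adjusted p = 0.0223), a call lost in 4 of the 6 fits that left out 1 array. The adjusted p was 0.0524 and 0.0913 without the KO arrays of mice 427 and 429 in turn, 0.0569 and 0.0738 without those of WT mice 546 and 560, and 0.0751 without both 427 and 547, within 0.00945 to 0.0913 over all 12 alternatives. The interaction was -1.96 ± 0.45 (adjusted p = 0.0217), and it too was lost without KO HFD mouse 429 (0.0525), WT HFD mouse 560 (0.0534) or KO ND mouse 718 (0.054), in a range of 0.00971 to 0.054 over 18 alternatives.

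Plin2, the coat protein of droplets in most cells, was the member that rose with HFD in both genotypes in fat. Its signals were 573, 1940.2 and 1854 in WT on ND, 1173, 909 and 1134 in KO on ND, 2867, 3325 and 2993 in WT on HFD and 3609, 4613 and 5376 in KO on HFD. Both HFD groups were above both ND groups on every array. The rise was 2.40-fold in WT (log2 difference 1.26 ± 0.38, adjusted p = 0.0142) and 4.20-fold in KO (2.07 ± 0.38, adjusted p = 0.001). All 3 KO arrays lay above the 3 WT arrays on HFD, but the difference of 0.55 ± 0.38 did not pass (adjusted p = 0.325; 95% interval -0.27 to 1.37). The WT ND array of mouse 686 was the lowest of all. Without it the interaction passed, at 1.38 (adjusted p = 0.0103) against 0.81 ± 0.53 with it (adjusted p = 0.349), and without mice 686 and 690 together it was 1.42 (adjusted p = 0.0355; 0.0103 to 0.564 over all alternatives).

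Plin3, the perilipin that shuttles from the cytosol, moved the other way. Its fat signals were 189.6, 237 and 217 in WT on ND, 233, 258 and 210.5 in KO on ND, 95.7, 143 and 103 in WT on HFD and 224, 189 and 277 in KO on HFD. WT on HFD was the lowest group with no overlap, and the other 3 groups overlapped. HFD lowered Plin3 1.91-fold in WT (log2 difference -0.93 ± 0.18, adjusted p = 0.00132); in KO the difference was -0.04 ± 0.18 (adjusted p = 0.881). On HFD it was 2.03-fold higher in KO than in WT (1.02 ± 0.18, adjusted p = 0.00302). The interaction of 0.89 ± 0.26 passed narrowly (adjusted p = 0.0479) and was lost in 14 of 18 alternatives (0.0206 to 0.117), including the loss of any one array except those of KO HFD mouse 428 and WT HFD mouse 547. The adjusted p without an array was 0.0624 for KO HFD mouse 427, 0.102 for KO HFD mouse 429, 0.107 for WT HFD mouse 546 and 0.105 for WT HFD mouse 560. For the ND arrays it was 0.0542, 0.0767 and 0.0871 without WT mice 686, 687 and 690, and 0.0964, 0.0687 and 0.113 without KO mice 718, 719 and 720. Without mice 686 and 690 together it was 0.117.

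Of the CIDE genes in fat, Cidec, which enlarges the single droplet of white fat cells, had signals of 966, 1744 and 1847 in WT on ND, 2057, 2030.3 and 2533 in KO on ND, 3669, 4364 and 4714 in WT on HFD and 2128, 4176 and 2353 in KO on HFD. WT on HFD stood above both ND groups, and KO on HFD overlapped it through mouse 428. HFD raised Cidec 2.89-fold in WT (log2 difference 1.53 ± 0.28, adjusted p = 0.000838). Neither the difference between KO and WT on HFD (-0.62 ± 0.28, adjusted p = 0.138; 95% interval -1.23 to -0.00) nor the interaction (-1.21 ± 0.40, adjusted p = 0.0737) passed with all arrays. Without KO HFD mouse 428 both did, at -0.92 (adjusted p = 0.0271) and -1.51 (adjusted p = 0.019), within 0.0271 to 0.417 and 0.019 to 0.23 over all alternatives.

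Cidea, the CIDE gene of brown fat, varied more than any other member among fat arrays of one group. Its signals were 40.1, 34.8 and 315 in WT on ND, 156, 52.9 and 31.5 in KO on ND, 51.4, 157 and 478 in WT on HFD and 21.9, 20 and 17.6 in KO on HFD. The 3 KO HFD arrays were the lowest of the 12, and the other 3 groups each held one array far above the group's lowest. The KO HFD signals lay near the filter signal of 19.3, so a fold against that group rests on low signals. On HFD it was 7.94-fold lower in KO (log2 difference -2.99 ± 0.93, adjusted p = 0.0402), with 229 ± 222 in WT and 19.8 ± 2.15 in KO (mean ± SD, n = 3). The call was lost without any one of KO mice 427 (0.0606), 428 (0.0764) and 429 (0.11) or WT mice 547 (0.0798) and 560 (0.158), without mice 427 and 547 together (0.0955), with quantile normalization (0.0605) and with no filter (0.0636); the 12 alternatives gave 0.024 to 0.158. Between HFD and ND the Cidea difference was 1.04 ± 0.93 in WT (adjusted p = 0.362) and -1.69 ± 0.93 in KO (adjusted p = 0.156), the latter passing when only the KO arrays were fitted (0.0429; 0.0429 to 0.43 over all alternatives). Ucp1, the uncoupling protein that defines brown and beige fat cells, was high on the same 4 fat arrays as Cidea, at 634 for WT HFD mouse 560, 311 for KO ND mouse 718, 154 for WT ND mouse 690 and 123 for WT HFD mouse 547, and at 0.67 to 26.9 on the other 8. Of the whole brown or beige list, 6 of 7 genes were measured, and none of the 5 tested passed between KO and WT fat on HFD (median -0.60); their summed signal was 155 to 1007 in WT and 151 to 249 in KO. The others of the list did not all share the pattern of Ucp1. Cox7a1, a subunit of cytochrome oxidase, was highest on the arrays of WT HFD mice 560 and 547 (203 and 145), whereas Dio2, which activates thyroid hormone, was highest on that of KO HFD mouse 429, at 37.1. The part of these genes in the Cidea result was not tested.

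**Figure D2:**
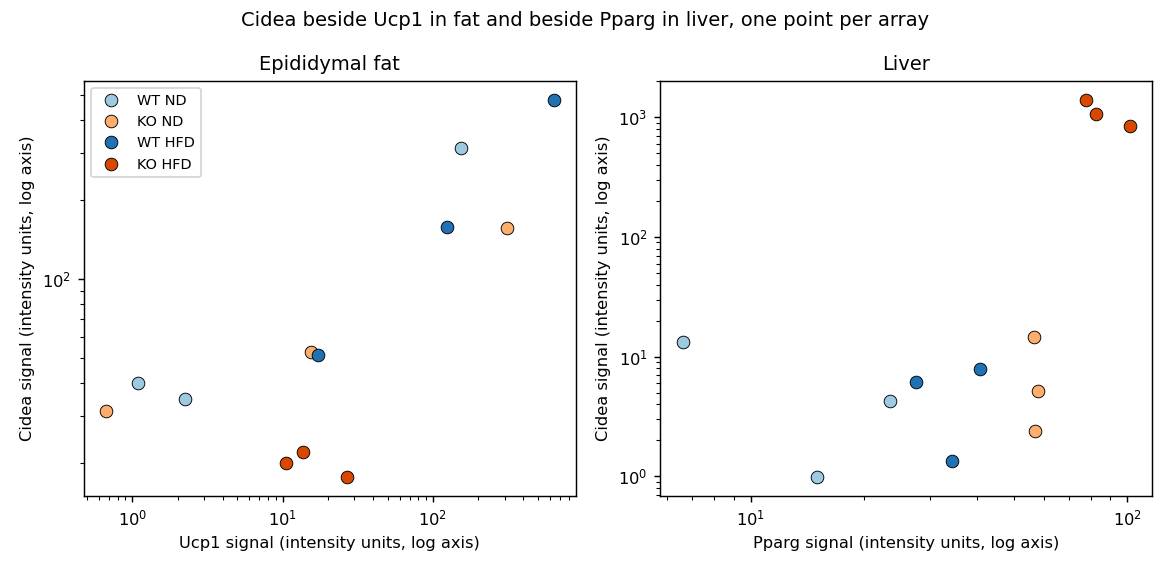
Cidea signal against Ucp1 signal on the 12 fat arrays (left) and against Pparg signal on the 12 liver arrays (right), both axes in intensity units on log scales, one point per array. In fat the 4 arrays with Ucp1 of 123 or more are the 4 highest for Cidea; in liver the 3 KO HFD arrays, at 844 to 1402, stand apart from the other 9.

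The fat-inducing transmembrane proteins differed in whether fat expressed them. Fitm2, the widely expressed member, had fat signals of 248, 424 and 398 in WT on ND, 328, 314 and 318 in KO on ND, 1109, 949 and 1038 in WT on HFD and 411, 684 and 349 in KO on HFD. WT on HFD was above all other arrays. HFD raised Fitm2 2.97-fold in WT (log2 difference 1.57 ± 0.24, adjusted p = 0.000287), against 0.53 ± 0.24 in KO (adjusted p = 0.0945), which passed without KO HFD mouse 429 (0.73, adjusted p = 0.0374; 0.0374 to 0.367 over all alternatives). On HFD it was 2.23-fold lower in KO (-1.16 ± 0.24, adjusted p = 0.00698). The interaction was -1.04 ± 0.34 (adjusted p = 0.0754) and passed without KO HFD mouse 428 (-1.32, adjusted p = 0.0138; 0.0138 to 0.297 over all alternatives).

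Fitm1, the muscle member, lay at 2.09 to 27.7 and Cideb, the liver CIDE gene, at 6.01 to 32.6 on the 12 fat arrays. Their means were under the filter signal of 19.3, so neither was tested in fat. The Fitm1 signal was 27.3 on the fat array of WT HFD mouse 547, which had the highest sum of skeletal muscle markers, and 27.7 on that of WT ND mouse 686, with 2.09 to 11.8 on the other 10, of which WT HFD mouse 546 had 11.8.

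On ND none of the 7 members tested passed between KO and WT fat. Plin4 (0.78 ± 0.32, adjusted p = 0.309) and Cidec (0.59 ± 0.28, adjusted p = 0.377) were the 2 members whose KO arrays all lay above the WT arrays. Plin4 did not pass under any alternative, nor did Cidec. The 95% intervals of the others on the log2 scale were -1.08 to 0.57 for Plin2, -0.27 to 0.53 for Plin3, -0.58 to 0.74 for Plin5, -0.65 to 0.42 for Fitm2 and -2.30 to 1.80 for Cidea.

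Cell type markers were read beside these fat differences. Of all genes tested in fat, 22.5% were called between KO and WT on HFD, 55.3% for the diet in WT and 48.7% for the diet in KO. The marker counts are to be read against those shares. On HFD the summed signal of 8 adipocyte markers was 24149 to 26269 in WT and 16416 to 23844 in KO, with 4 of 8 lower and none higher in limma; 9 of 10 macrophage markers rose, from a sum of 6804 to 11283 in WT to 17876 to 30080 in KO. All 6 endothelial markers tested fell, from a sum of 3327 to 3511 to one of 1083 to 1620. Between ND and HFD in WT fat, 6 of 8 adipocyte markers rose (sum 12271 to 20502 on ND), as did 8 of 10 macrophage (2663 to 3402) and 6 of 6 endothelial markers (635 to 924), none of these lists holding a marker that fell. In KO fat, 3 adipocyte markers rose and 1 fell (sum 15904 to 17330 on ND), 10 of 10 macrophage markers rose (3772 to 4877) and 2 of 6 endothelial markers did (1093 to 1154). All 8 measured epididymis markers fell with HFD in both genotypes, from the sums given above, and so did 5 of 5 general epithelial markers; 7 of 8 hepatocyte markers fell in WT fat and 1 of 8 in KO, and 5 and 2 of 5 sperm and testis markers. Their part in the fat results was not tested, and in bulk tissue fewer cells of a type and less RNA per cell cannot be told apart. Adipoq, the defining transcript of fat cells, was 6437 to 7424 in WT and 4439 to 6483 in KO on HFD, which overlap. Lep, on the same list, lay the other way, at 1009 to 2398 in WT and 2568 to 4458 in KO.

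**Figure D3:**
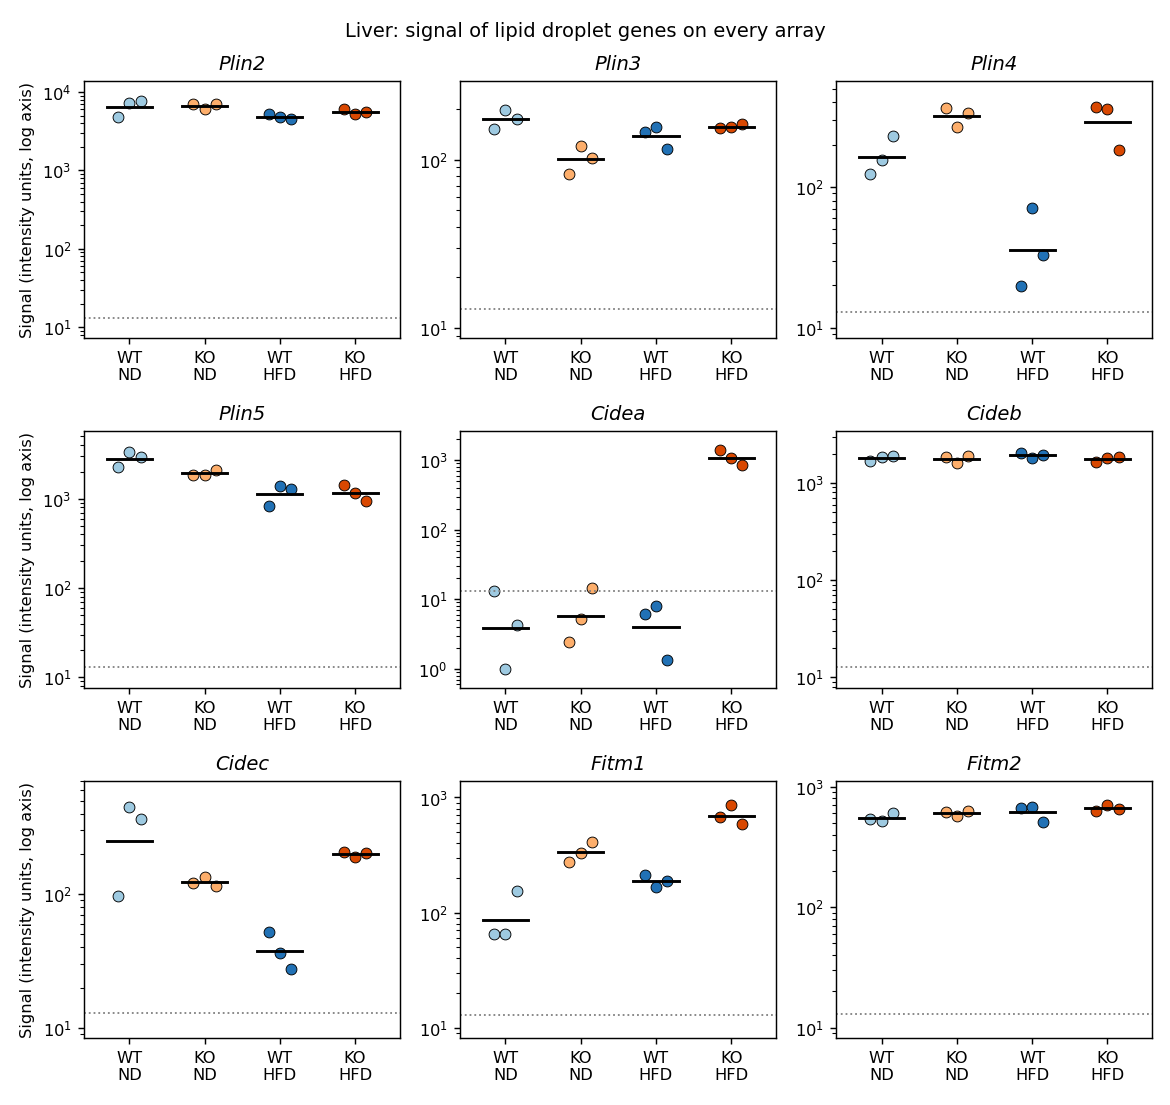
Signal on each of the 12 liver arrays (points, intensity units on a log axis) for the 9 measured members, by genotype and diet; the bar is the mean of log2 signals and the dotted line the filter signal of 13.0. Cidea is at 844 to 1402 on the 3 KO HFD arrays and at 0.98 to 14.5 on the other 9.

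In liver, the perilipin with the widest difference was Plin4, a protein known mainly from fat cells. Its liver signals were 124, 156 and 230.1 in WT on ND, 364, 267 and 336 in KO on ND, 19.9, 70.5 and 32.8 in WT on HFD and 368, 359 and 183 in KO on HFD. WT on HFD was the lowest group with no overlap, and the KO arrays on either diet lay above the WT arrays of the same diet. On HFD Plin4 was 8.07-fold higher in KO than in WT (log2 difference 3.01 ± 0.39, adjusted p = 0.000743). HFD lowered it 4.59-fold in WT (-2.20 ± 0.39, adjusted p = 0.00388), while in KO the difference was -0.14 ± 0.39 (adjusted p = 0.84). On ND the genotype difference was 0.96 ± 0.39 (adjusted p = 0.182), which passed when only the ND arrays were fitted (0.0477; 0.0477 to 0.361 over all alternatives). The interaction of 2.05 ± 0.56 did not pass (adjusted p = 0.106), except without WT HFD mouse 547 (2.54, adjusted p = 0.0323; 0.0323 to 0.223 over all alternatives).

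Plin5 in liver had signals of 2295, 3327 and 2934 in WT on ND, 1861, 1848 and 2075 in KO on ND, 839.9, 1396 and 1269.6 in WT on HFD and 1411, 1153 and 938 in KO on HFD. Each HFD array was below each ND array of its genotype, and KO and WT overlapped on HFD. HFD lowered Plin5 2.47-fold in WT (log2 difference -1.30 ± 0.19, adjusted p = 0.00149) and 1.67-fold in KO (-0.74 ± 0.19, adjusted p = 0.0206). The call in KO was lost without KO HFD mouse 428 (0.0518) or 429 (0.0901) or KO ND mouse 718 (0.0503) or 720 (0.0733), in a range of 0.00649 to 0.0901. The second Plin5 probe set gave -1.02 for the KO diet difference (adjusted p = 0.00506). Between KO and WT on HFD the Plin5 difference was 0.01 ± 0.19, with a 95% interval of -0.41 to 0.43.

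Plin2 and Plin3 varied less in liver. Plin2 signals were 4834, 7158 and 7726 in WT on ND, 7002, 6022 and 6985 in KO on ND, 5184, 4755 and 4509 in WT on HFD and 5998, 5252 and 5516 in KO on HFD, and no Plin2 comparison passed with all liver arrays. Without the WT ND array of mouse 686, the lowest of its group, the diet effect in WT did (-0.63, adjusted p = 0.00427, against -0.42 ± 0.15 and 0.0805 with it; 0.00427 to 0.249 over all alternatives). Plin3 signals were 152, 197 and 174 in WT on ND, 81.8, 122 and 103 in KO on ND, 147, 156 and 115 in WT on HFD and 154, 156 and 163 in KO on HFD. The 3 KO ND arrays were below all WT ND and all KO HFD arrays. On ND Plin3 was 1.72-fold lower in KO (log2 difference -0.79 ± 0.17, adjusted p = 0.0195), and in KO it was 1.56-fold higher on HFD than on ND (0.65 ± 0.17, adjusted p = 0.0192). The ND call was lost without WT mouse 687 (0.0811), KO mouse 718 (0.0787) or KO mouse 720 (0.0613; 0.0174 to 0.0811 over all alternatives), and the diet call without KO HFD mouse 429 (0.0631) or KO ND mouse 718 (0.0808; 0.0146 to 0.0808).

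Cidea showed the widest difference of any member in any comparison within a tissue. Its liver signals were 13.3, 0.98 and 4.29 in WT on ND, 2.41, 5.20 and 14.5 in KO on ND, 6.10, 7.90 and 1.34 in WT on HFD and 1402, 1072 and 844 in KO on HFD. The 3 KO HFD arrays stood far above the other 9, which were near the filter signal of 13.0 or under it. Set against that filter signal, KO on HFD was at least 83.6-fold higher than WT on HFD and than KO on ND. The fitted log2 differences, which for low signals depend on the floor, were 8.08 ± 0.88 between KO and WT on HFD (adjusted p = 0.000211) and 7.58 ± 0.88 between HFD and ND in KO (adjusted p = 0.000234). The corresponding values were 0.51 ± 0.88 between KO and WT on ND (adjusted p = 0.786) and 0.01 ± 0.88 for the diet in WT (adjusted p = 0.996). The interaction passed at 7.57 ± 1.25 (adjusted p = 0.0159) and missed the threshold without KO HFD mouse 427 (0.0515), with 0.00632 to 0.0515 over 16 alternatives. Cidea reached the liver filter through the KO HFD arrays alone, so it was tested only because that group was high. With no filter, limma gave an adjusted p of 0.000463 between KO and WT on HFD, 0.000484 for the KO diet effect and 0.0332 for the interaction.

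Cidec had liver signals of 96.4, 451 and 366 in WT on ND, 121, 135 and 115 in KO on ND, 52.3, 36.6 and 27.5 in WT on HFD and 206, 191 and 204 in KO on HFD. On HFD the KO arrays were above the WT arrays; on ND the WT group ran from 96.4 to 451 and enclosed the KO group. On HFD Cidec was 5.34-fold higher in KO (log2 difference 2.42 ± 0.43, adjusted p = 0.00578). HFD lowered it 6.71-fold in WT (-2.75 ± 0.43, adjusted p = 0.00189); in KO the difference was 0.70 ± 0.43 (adjusted p = 0.291), which passed when only the KO arrays were fitted (0.00433; 0.00433 to 0.452 over all alternatives). The interaction was 3.44 ± 0.60 (adjusted p = 0.0215), lost without KO HFD mouse 427 (0.0515) or 429 (0.0532) or KO ND mouse 718 (0.0511) or 720 (0.0612), in a range of 4.46e-05 to 0.0612. Without the low WT ND array of mouse 686, the ND difference between KO and WT passed at -1.72 (adjusted p = 0.00209), against -1.03 ± 0.43 with it (adjusted p = 0.189; 0.00209 to 0.512 over all alternatives). The RefSeq table gives Cidec a pair of starts, and one probe set does not separate transcripts from them.

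Cideb, the CIDE gene of liver cells, was the steadiest member. Its 12 liver signals lay between 1609 and 2037, and no liver comparison of it passed. The 95% interval of the Cideb difference between KO and WT on HFD was -0.33 to 0.08 on the log2 scale, and that of the diet effect in WT -0.11 to 0.30.

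Fitm1 differed between the genotypes on both diets in liver. Its signals were 64.7, 64.8 and 155 in WT on ND, 274, 331 and 409.6 in KO on ND, 213, 168 and 189 in WT on HFD and 671, 862 and 584 in KO on HFD. No 2 of the 4 groups overlapped, and their levels stood in the order WT ND, WT HFD, KO ND and KO HFD from low to high. Fitm1 was 3.68-fold higher in KO on HFD (log2 difference 1.88 ± 0.28, adjusted p = 0.00223) and 3.85-fold on ND (1.95 ± 0.28, adjusted p = 0.00261). HFD raised it in WT (1.13 ± 0.28, adjusted p = 0.0224) and in KO (1.06 ± 0.28, adjusted p = 0.0229), and the interaction was -0.07 ± 0.40 (95% interval -0.93 to 0.80). The WT diet call was lost without WT HFD mouse 546 (0.0766) or WT ND mouse 686 (0.0716) or 687 (0.0865), and in the fit of the WT arrays alone (0.0724), in a range of 0.000896 to 0.0865. The KO diet call was lost without KO HFD mouse 427 (0.0544) or 428 (0.0811) or KO ND mouse 718 (0.0874) or 719 (0.0627), in a range of 0.00356 to 0.0874. Fitm2 lay between 512 and 696 on all 12 liver arrays, and none of its liver comparisons passed; between KO and WT on HFD its 95% interval was -0.14 to 0.36.

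**Figure D4:**
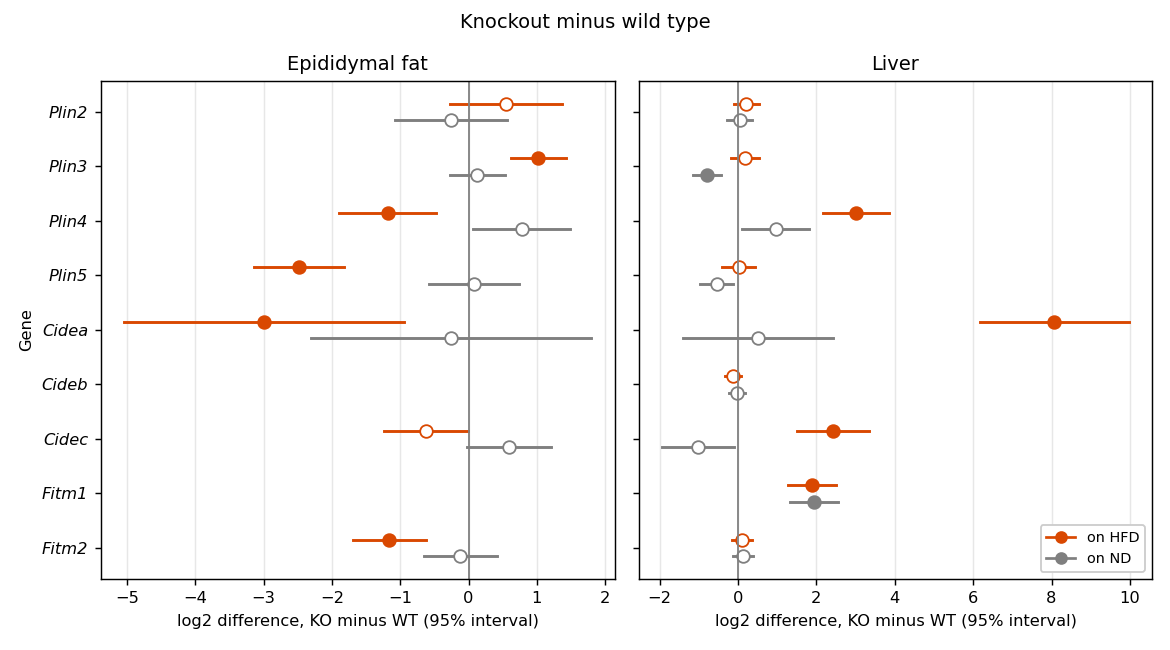
Log2 difference between KO and WT for each member tested in fat (left) and liver (right), on HFD (orange) and ND (grey), with 95% intervals from the fit; filled points passed an adjusted p of 0.05. Plin4 and Cidea are below 0 in fat and above 0 in liver on HFD; Cideb and Fitm1 were not tested in fat.

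Fat cell and macrophage markers were checked beside the liver rises. Of all genes tested in liver, 6.71% were called between KO and WT on HFD. The summed adipocyte markers were 833 to 1053 in KO and 314 to 384 in WT on HFD, and of the 3 tested, Fabp4 (1.63 ± 0.30, adjusted p = 0.00768) and Pparg rose. The defining fat cell transcripts were near background on every liver array, with Adipoq at 1.29 to 27.4 and Lep at 0.36 to 7.37, where fat arrays of KO on HFD had 4439 to 6483 and 2568 to 4458. Ucp1 was at 0.51 to 9.18 on the liver arrays. Of 9 macrophage markers tested in liver, 3 rose in KO on HFD and none fell, from a sum of 2645 to 3442 in WT to 3737 to 4772 in KO. The 8 hepatocyte markers, which summed to 68459 to 103216 on the liver arrays, fell in 4 of 8 cases, from a sum of 86304 to 97240 in WT to 68459 to 77853 in KO on HFD. The part of these markers in the Cidea, Cidec, Plin4 and Fitm1 results was not tested.

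**Figure D5:**
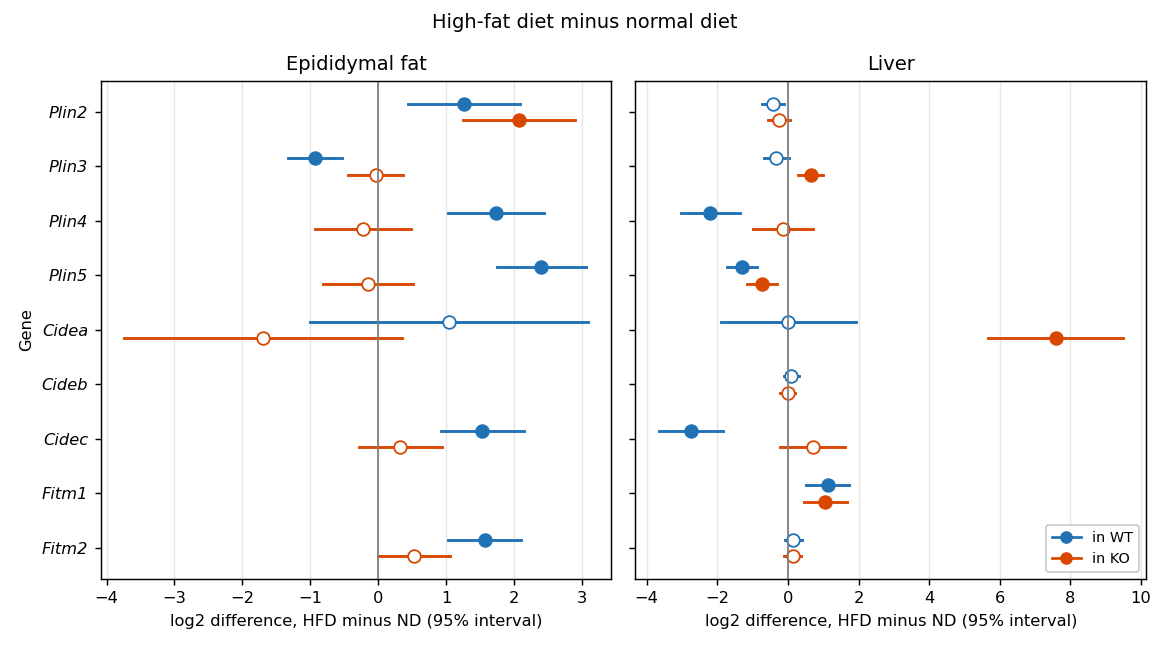
Log2 difference between HFD and ND for each member tested in fat (left) and liver (right), in WT (blue) and KO (orange), with 95% intervals from the fit; filled points passed an adjusted p of 0.05. In fat the WT points of Plin4, Plin5, Cidec and Fitm2 are above 0 and filled and the KO points are not filled; in liver the WT points of Plin4, Plin5 and Cidec are below 0 and filled.

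The tissues were then compared in a joint fit of all 24 arrays, in which 12597 genes were tested. All 9 members differed between fat and liver over the 4 groups, where 82.8% of all genes did and the median gene was 0.32 higher in fat on the log2 scale. Against 0, Cidec (4.32 ± 0.20), Plin4 (3.96 ± 0.20), Cidea (1.82 ± 0.49) and Plin3 (0.43 ± 0.09) were higher in fat. Cideb (-6.58 ± 0.17), Fitm1 (-5.22 ± 0.34), Plin5 (-2.97 ± 0.13), Plin2 (-1.49 ± 0.15) and Fitm2 (-0.34 ± 0.10) were higher in liver, Cideb and Fitm1 being at background in fat. These are means over 4 groups, and in single groups the mean went the other way for Cidea, Plin3 and Fitm2. On HFD in KO, Cidea was at 17.6 to 21.9 in fat and 844 to 1402 in liver. On HFD in WT, Plin3 was at 95.7 to 143 in fat and 115 to 156 in liver, which overlap, and Fitm2 at 949 to 1109 in fat and 512 to 678 in liver. Quantile normalization moved the median gene to 0.09 and ended the Plin3 call (0.18, adjusted p = 0.059; 7.50e-05 to 0.059 over all alternatives), while the other 8 members kept theirs.

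The genotype effect on HFD differed between the tissues for 7 of 9 members, where 9.76% of all genes did. Plin4 (-4.20 ± 0.55, adjusted p = 0.000107), Cidea (-11.07 ± 1.39, adjusted p = 6.70e-05), Plin5 (-2.49 ± 0.38, adjusted p = 0.000411), Cidec (-3.03 ± 0.56, adjusted p = 0.00199) and Fitm2 (-1.27 ± 0.28, adjusted p = 0.00624) had a KO effect more negative in fat than in liver. The Cidea value rests on low signals at its bottom in both tissues. Plin3 (0.84 ± 0.25, adjusted p = 0.0406) had the opposite sign and lost its call in 10 of 17 alternatives (0.0126 to 0.124). Fitm1 (-3.32 ± 0.97, adjusted p = 0.0356), at background in fat, lost its call in 11 of 17 (0.00698 to 0.106).

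Leaving out 1 array ended the Plin3 tissue call in 9 of 12 fits and the Fitm1 tissue call in 10 of 12. For Plin3 the call was lost without the fat array of KO mouse 427 (0.0536) or 429 (0.124) or WT mouse 546 (0.104) or 560 (0.0973), and without the liver array of KO mouse 427 (0.0776), 428 (0.0697) or 429 (0.0626) or WT mouse 546 (0.0822) or 547 (0.0946). For Fitm1 it was lost without the fat array of KO mouse 427 (0.0681) or 429 (0.106) or WT mouse 546 (0.0691) or 547 (0.0863). In liver it was lost without KO mouse 427 (0.0626), 428 (0.0722) or 429 (0.053) or WT mouse 546 (0.0541), 547 (0.0688) or 560 (0.0583).

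The diet effect in WT differed between fat and liver for 6 of 9 members, where 35.1% of all genes did. Cidec (4.28 ± 0.56, adjusted p = 9.07e-06), Plin4 (3.94 ± 0.55, adjusted p = 1.90e-05) and Plin5 (3.71 ± 0.38, adjusted p = 6.06e-07) rose with HFD in fat and fell in liver. Plin2 (1.69 ± 0.42, adjusted p = 0.00418) and Fitm2 (1.42 ± 0.28, adjusted p = 0.000523) differed through their rise in fat, with no call in liver. Plin3 had a difference of -0.60 ± 0.25 (adjusted p = 0.069), and with the mouse as a replicate block, since each mouse gave both tissues, it passed (adjusted p = 0.0366). It also passed without the fat array of WT HFD mouse 547 (-0.78, adjusted p = 0.0202) or the liver array of WT HFD mouse 560 (-0.73, adjusted p = 0.0344), in a range of 0.0202 to 0.166.

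Cideb differed by -1.36 ± 0.48 (adjusted p = 0.0319) in that diet comparison, which rests on fat signals at background. The Cideb call was lost under quantile normalization (0.136), without the fat arrays of WT HFD mouse 547 (0.0883) or 560 (0.104) or WT ND mouse 687 (0.0571) or 690 (0.0636), and without the liver arrays of WT HFD mouse 546 (0.0598) or 560 (0.0515) or WT ND mouse 686 (0.06), in a range of 2.90e-05 to 0.136. The Cideb genotype difference between tissues passed without the fat array of WT HFD mouse 546 alone (1.47, adjusted p = 0.00367; 0.00367 to 0.644 over all alternatives).

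Genes that supply lipid to droplets were read from a list of 23, of which 21 had a probe set. In fat, 2 of 19 tested rose and 4 fell in KO on HFD, where 11.1% of all genes rose and 11.4% fell, with a median of -0.03 on the log2 scale, equal to that of all genes. Mogat1, a monoacylglycerol acyltransferase that makes diacylglycerol, fell (-2.23 ± 0.33, adjusted p = 0.00125), and so did the glycerol-phosphate acyltransferases Gpam (-0.91 ± 0.20) and Gpat3 (-1.34 ± 0.34) and the acylglycerol-phosphate acyltransferase Agpat3 (-0.63 ± 0.14). In liver on HFD, 3 of 18 rose and none fell, where 6.71% of all genes were called (median 0.06, all genes -0.03). Mogat1 rose there, from 13.9, 24.7 and 13.8 in WT to 236, 161 and 313 in KO (3.77 ± 0.35, adjusted p = 5.35e-05), with Agpat2 (0.53 ± 0.14) and Gpat3 (0.60 ± 0.16). On ND the Mogat1 signals were 22.3, 21.8 and 40.8 in WT and 32.9, 29.1 and 54.9 in KO, and the liver interaction passed (3.30 ± 0.49, adjusted p = 0.012). The difference of the Mogat1 genotype effect between fat and liver was -6.00 ± 0.51 (adjusted p = 1.09e-06).

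Genes of lipolysis at the droplet were read from a list of 17, with 15 tested in fat and 13 in liver. With HFD in WT fat 12 of 15 rose and 1 fell, where 55.3% of all genes were called (median 1.80, all genes -0.03), among them the lipase inhibitor G0s2 (3.85 ± 0.29), the glycerol channel Aqp7 (3.44 ± 0.32), the triglyceride lipase Pnpla2 (1.61 ± 0.18) and the monoglyceride lipase Mgll (1.53 ± 0.20). In KO fat on HFD, 2 rose and 7 fell against WT, where 22.5% of all genes were called (median -0.60). The carboxylesterases Ces1f (-3.64 ± 0.36, adjusted p = 0.000243) and Ces1d (-2.52 ± 0.29) and Pnpla2 (-0.91 ± 0.18) fell, while the lysosomal lipase Lipa rose (1.55 ± 0.24). In liver on HFD, 1 of 13 rose in KO and none fell, near the 6.71% of all genes called; it was the fatty acid carrier Fabp4 given above.

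Other droplet surface and traffic proteins numbered 29, with 26 tested in fat and 27 in liver. In fat on HFD 4 rose and 2 fell in KO, a share close to the 22.5% of all genes called; Nsdhl, a sterol dehydrogenase found on droplets, rose (0.92 ± 0.10), as did the fusion protein Snap23 (0.63 ± 0.13) and the lysophosphatidylcholine acyltransferase Lpcat2 (1.50 ± 0.31), and the methyltransferase-like Mettl7a1 fell (-1.51 ± 0.18). In liver on HFD 3 rose and 1 fell in KO, where 6.71% of all genes were called. The droplet dehydrogenase Hsd17b13 rose (0.68 ± 0.09, adjusted p = 0.000906), with the filament protein vimentin, Vim (1.32 ± 0.20), and the cytochrome b5 reductase Cyb5r3 (0.77 ± 0.16), and the caveolar protein Cav1 fell (-1.16 ± 0.24).

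Transcription factors known to act on droplet genes were 29, with 27 tested in fat and 24 in liver. In fat on HFD 2 rose and 5 fell in KO (median -0.29, all genes -0.03), a share close to the 22.5% of all genes called. In liver 2 rose and 1 fell (median -0.08), against 6.71%. Pparg, the nuclear receptor of fat cell formation, had fat signals of 107, 145 and 173 in WT on ND, 223, 207 and 229 in KO on ND, 848, 701 and 816 in WT on HFD and 313, 473 and 316 in KO on HFD. It rose with HFD in WT fat (2.50 ± 0.19, adjusted p = 3.20e-06) and was lower in KO on HFD (-1.12 ± 0.19, adjusted p = 0.00261). In liver its signals were 6.59, 15.01 and 23.4 in WT on ND, 56.8, 58.1 and 56.6 in KO on ND, 27.5, 40.7 and 34.4 in WT on HFD and 77.9, 82.6 and 102 in KO on HFD, and KO was higher on HFD (1.36 ± 0.36, adjusted p = 0.038) and on ND (2.11 ± 0.36, adjusted p = 0.00672). The KO ND livers, with Pparg at 56.6 to 58.1, had Cidea at 2.41 to 14.5. The part of Pparg in the Cidea result, or in that of any other member, was not tested. Srebf1, which drives fatty acid synthesis genes, was higher in KO liver on HFD (0.96 ± 0.22), and the lipogenic factor Mlxipl was lower in KO fat on HFD (-1.24 ± 0.28). Epas1, a hypoxia factor, also fell in KO fat (-0.85 ± 0.15), and Srebf2, the sterol factor, rose (0.88 ± 0.19), while Rxrb fell in KO liver (-0.88 ± 0.21).

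How alike the members were was described by Pearson's r of log2 signals over the 12 arrays of a tissue, which share groups of 3 and are given with no test. In fat, Plin5 and Fitm2 (0.93), Cidec and Plin4 (0.92), Cidec and Fitm2 (0.87), and Plin4 with Plin5 (0.86) and Fitm2 (0.86) ran together. Plin3 ran against Plin5 (-0.89) and Fitm2 (-0.85). Plin2 stood aside from Plin5 (0.35), and Cidea from Cidec (0.24). In liver the highest values were those of Cidea with Fitm1 and Cidec with Plin2 (both 0.75). Over all tested genes in fat, those most like Plin5 were Rbp7 (0.99), Hspa12b (0.98) and Txlng (0.97); most like Fitm2 were Pim3 (0.99), Aifm2 and Adipor2 (0.98 each); most like Cidec were Mc2r (0.98), Nr1h3 (0.98) and Prnp (0.97); most like Plin4 were Ntrk2 (0.97), Mc2r (0.96) and Sema3g (0.96). Mc2r, the receptor for corticotropin, was in both of the last lists. Plin2 was most like Bak1 (0.97), Plaur and Kcnk13 (0.96 each), Plin3 most like Plxnb2 (0.98), Nudt3 and Spcs3 (0.97 each), and for Cidea no gene was above 0.85 (ND5, Flvcr2 and Sbds).

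In liver, the genes most like Cidea were Hsbp1 (0.97), Vim (0.95) and Cd52 (0.95), and those most like Plin4 were Herc2 (0.94), Hsd17b13 (0.93) and Commd8 (0.91), with Hsd17b13 being a droplet protein of the list above. Fitm1 was most like Aox1 (0.97), Suclg2 and Slc16a7 (0.96 each), Cidec most like Myl6 (0.90), Pno1 (0.89) and Adck1 (0.87), Plin5 most like Inpp5j (0.95), Babam2 and Baiap2l1 (0.94 each), and Plin3 most like Tlcd1 (0.89), Cldn14 and Grina (0.88 each).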

How the data were processed

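RNA of epididymal fat and liver from 12 mice was hybridised to 24 Affymetrix arrays, 3 per group. The deposited values are linear signal intensities of 45101 probe sets, made by the authors with MAS5 per the submitters' processing notes, and 2% trimmed means of 100.03 to 100.05 show that each array had been scaled to one target. The normalization of the deposited intensity was kept. Array medians were 13.5 to 25.8, and the number of arrays limits the precision. Nothing in the labels says how animals were housed or allocated. The p-values set group differences against the spread between arrays of these mice within groups.

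The 64 control probe sets were left out, and 34945 probe sets with 1 gene were used (932 had several, 9160 none), with 99.4% of their symbols updated through the Entrez identifier. Signals were floored at each tissue's 10th percentile (1.08 in fat, 1.10 in liver), put on the log2 scale and reduced to the probe set of highest mean per gene. Genes at or above the mean signal of the middle probe set, 19.3 in fat and 13.0 in liver, were tested with limma 3.58.1 (R 4.3.3) with a mean-variance trend, in one fit of 4 groups per tissue and one of 8 groups for tissue differences, with Benjamini-Hochberg adjustment over all genes tested. SE is the moderated standard error, and fold changes are on the log2 signal scale, which the floor shrinks for low genes. "At least" folds set the bright group against the filter signal. Comparisons that share a group (such as KO and WT on HFD and the WT diet effect, which share WT on HFD) are not independent.

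Since both tissues came from the same mouse, the arrays are paired by animal for the tissue comparisons. The main joint fit took a mouse's fat and liver arrays as independent, and the mouse as a block was an alternative. The correlations of the deviations of a mouse's fat and liver arrays were 0.0058 to 0.063. Procedures were tested on simulated data. Members, gene lists, marker lists and the arrays left out together were chosen with earlier results of these data known. The genes named are the members, up to 4 called genes of smallest adjusted p per list in a comparison, the 3 genes most like a called member, markers beside a result, and Ffar4. Each result was recalculated after quantile normalization, without the filter, without the floor, with all probe sets of a gene averaged, on the compared arrays alone, with each array left out, and with the mouse as a block.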

Additional observations from a re-analysis of the deposited data

Results flagged for a closer look

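The following differences between groups passed a test of the difference itself. In fat, the genotype by diet interaction (log2) was 0.89 for Plin3, -1.96 for Plin4 and -2.56 for Plin5. In liver it was 7.57 for Cidea and 3.44 for Cidec. The WT diet effect in fat minus that in liver was 1.69 for Plin2, 3.94 for Plin4, 3.71 for Plin5, -1.36 for Cideb, 4.28 for Cidec and 1.42 for Fitm2. The genotype effect on HFD in fat minus that in liver was 0.84 for Plin3, -4.20 for Plin4, -2.49 for Plin5, -11.07 for Cidea, -3.03 for Cidec, -3.32 for Fitm1 and -1.27 for Fitm2. Several of these calls were lost in alternative fits. The fat interaction was lost in 14 of 18 for Plin3 and 3 of 18 for Plin4, and the liver interaction in 4 of 16 for Cidec and 1 of 16 for Cidea. The diet difference was lost in 8 of 17 for Cideb, and the genotype difference in 10 of 17 for Plin3 and 11 of 17 for Fitm1. Cideb and Fitm1 were at background in fat, and the Cidea values rest on low signals. Groups of 3 arrays were too small for a test of single outlying samples.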

How the results depend on the processing

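Of 53 member differences that passed, 38 kept direction and call under every alternative run for them, and none changed direction while called; over 872 recalculations 82 lost the call. Of 704 recalculations of the 54 that did not pass, 16 gained a call and 42 changed sign without one. In most cases the cause was not tested; fewer arrays in a fit widen its errors by construction.

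The number of members called changed as follows when 1 array was left out: KO against WT fat on HFD 3 to 5 (5 with all), the KO diet effect in fat 1 to 2 (1), the fat interaction 1 to 5 (3), KO against WT liver on ND 1 to 3 (2), the KO diet effect in liver 1 to 3 (4), the liver interaction 0 to 3 (2), the WT diet effect in liver 3 to 4 (4), the WT diet difference between tissues 5 to 6 (6) and the genotype difference between tissues 5 to 7 (7). It did not change for KO against WT fat on ND (0), the WT diet effect in fat (6), KO against WT liver on HFD (4) or the tissue difference (9). Without the fat arrays of mice 427 and 547, 3 members differed between KO and WT fat on HFD, an alternative chosen with earlier results known. With only the arrays compared, 2 members passed the KO diet effect in fat. With the mouse as a replicate block, 9, 7 and 7 members passed the tissue difference, the diet difference and the genotype difference between tissues, against 9, 6 and 7 without it, and the block changed no other member's call than that of Plin3.

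Over all genes, calls between KO and WT fat on ND were 29, and 81 by quantile normalization, 18 by the mean of probe sets, 2 without mice 686 and 690, and 7 to 392 with 1 array left out. The fat interaction had 1273, and 848 by the mean of probe sets, 375 without mice 686 and 690, and 633 to 1509 with 1 array left out. In fat on HFD the count of 2612 ran from 1587 to 2686 with 1 array left out. In liver, 747 on HFD ran from 278 to 683, 524 on ND from 196 to 569 (309 by the mean, 330 with only the arrays compared), 1392 for the WT diet from 673 to 1384 (846 and 629), 1839 for the KO diet from 1133 to 1305, and 110 for the interaction from 35 to 120 (57 with no filter, 52 by the mean). The genotype difference between tissues ran from 718 to 1376 around 1229. Signals near the floor limit Cidea in liver and Cideb and Fitm1 in fat, and Cidea on the KO HFD fat arrays was near the filter signal.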
